A study of Mus musculus with 6 samples.

Results

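The 10 genes examined here encode the calcium release unit of the cardiomyocyte and the proteins that remove calcium again: Trdn, Asph, Casq2, Ryr2, Hrc, Jph2, Atp2a2, Pln, Sln and Slc8a1. They were taken by gene symbol from a table of 26199 genes, and all 10 were found and passed the filter on low values. The set was chosen on the same comparison that is described here, with the values of Trdn known, so the differences below are descriptions of these libraries. Mouse hearts were collected at embryonic day 12 from Mrps5 fl/fl embryos, called Ctrl, and from Mrps5 fl/fl; cTNT-Cre littermates, called cKO, with 3 libraries in each group. By the labels, both groups carry 2 floxed alleles of Mrps5, which encodes a protein of the small mitochondrial ribosomal subunit. They differ in the Cre transgene, which the troponin T2 promoter expresses in early cardiomyocytes. The main text of the paper gives the same mutant genotype, but its supplementary captions on these embryos name the mutants Mrps5 fl/+; cTnT-Cre. Each library was made from pooled whole hearts, so cells other than cardiomyocytes contributed RNA in which the gene was intact. No control that carries Cre without floxed alleles was analysed here.

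Calcium leaves the sarcoplasmic reticulum of a heart cell through the ryanodine receptor RYR2, which opens when calcium enters through channels of the plasma membrane. Triadin, from Trdn, and junctin, a product of Asph, are membrane proteins that join RYR2 to calsequestrin, the calcium buffer inside the reticulum made from Casq2. The histidine-rich calcium-binding protein, from Hrc, also binds triadin in that lumen, and junctophilin, from Jph2, holds the reticulum against the plasma membrane. SERCA2, from Atp2a2, pumps calcium back into the reticulum under the restraint of the small proteins phospholamban, from Pln, and sarcolipin, from Sln. The sodium-calcium exchanger, from Slc8a1, carries calcium out of the cell.

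The coding ends of the Trdn transcripts and the coding starts of the Asph transcripts are shown first, because rows of these genes that differ there also differed in their values. Trdn (ENSMUSG00000019787) lies on the plus strand at chr10:33080554-33476709 in GRCm38, and the transcripts in the table were matched by identifier to GENCODE M21. The 4 Trdn transcripts below share their first 787 coding bases and then end differently. Each line begins with the last 30 shared coding bases, at chr10:33196096-33196125. In the first 3 lines the capitals mark coding bases that the long isoform Trdn-201 does not carry, up to and including the stop codon. In the line for Trdn-201, of which 222 bases are shown, the capitals mark bases that none of the other 3 carries.
Trdn-207: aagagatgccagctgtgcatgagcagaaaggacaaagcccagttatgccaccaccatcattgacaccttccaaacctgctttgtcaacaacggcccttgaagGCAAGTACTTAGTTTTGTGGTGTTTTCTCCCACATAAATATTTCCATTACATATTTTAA
Trdn-202: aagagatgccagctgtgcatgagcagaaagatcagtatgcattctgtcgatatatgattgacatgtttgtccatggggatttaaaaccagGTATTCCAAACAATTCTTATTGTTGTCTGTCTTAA
Trdn-208: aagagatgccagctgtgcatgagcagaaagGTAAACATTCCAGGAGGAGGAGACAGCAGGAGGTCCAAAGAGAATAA
Trdn-201: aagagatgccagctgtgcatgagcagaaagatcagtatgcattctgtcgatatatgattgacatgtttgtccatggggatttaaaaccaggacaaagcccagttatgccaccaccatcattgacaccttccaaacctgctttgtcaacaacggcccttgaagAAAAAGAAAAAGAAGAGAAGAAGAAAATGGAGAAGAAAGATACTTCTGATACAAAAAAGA

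Trdn-207 skips the 60-base exon at chr10:33200163-33200222 that Trdn-201 uses, and reads through the end of the next exon, at chr10:33233855-33233985, into 59 coding bases of its own. Trdn-202 and Trdn-208 read through the ends of earlier exons, into 35 and 47 coding bases of their own. The whole coding sequence with its stop codon is 918 bases in Trdn-207, 882 in Trdn-202, 834 in Trdn-208 and 2082 in Trdn-201. The rows overlap in shared exons, and the number of fragments behind each row's value is unknown.

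Asph (ENSMUSG00000028207) lies on the minus strand at chr4:9448069-9669344, and its rows fall into those annotated from an upstream start and those annotated from an internal start at position 9643717. Their first coding bases are given from Asph-208, which has the internal start, and Asph-212, which has the upstream start, with the bases of the first coding exon, not shared between them, in capitals and 30 bases of the shared exon at chr4:9639318-9639347 in lower case.
Asph-208: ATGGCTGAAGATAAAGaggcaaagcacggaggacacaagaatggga
Asph-212: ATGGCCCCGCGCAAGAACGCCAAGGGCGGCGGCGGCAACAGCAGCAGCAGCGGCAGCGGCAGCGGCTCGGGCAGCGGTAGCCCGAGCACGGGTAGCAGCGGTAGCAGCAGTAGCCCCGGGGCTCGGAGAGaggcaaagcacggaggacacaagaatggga

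Before the calcium genes, the deleted gene was examined. Mrps5 had an FPKM of 9.65, 11.4 and 10.4 in Ctrl replicates 1, 2 and 3, and of 5.28, 7.41 and 10.4 in the libraries labelled cKO replicates 1, 2 and 3. FPKM is the number of sequenced fragments scaled by transcript length and by the size of the library. The library labelled cKO replicate 3 was thus at the control level, and the fitted differences of the 10 genes are also given without it. The 15 cardiomyocyte marker genes listed for this check were all detected in all 6 libraries. Their summed FPKM ranged from 13148 to 15795 in Ctrl and from 10611 to 12682 in cKO libraries, without overlap, and all 15 fitted differences were negative with a median log2 fold change of -0.31. In bulk hearts, fewer cardiomyocytes and less RNA of these genes in each cardiomyocyte cannot be told apart. Erythroid marker genes, 11 in number, made up between 12.0% and 13.3% of the summed FPKM in Ctrl libraries, 23.5% and 22.0% in cKO replicates 1 and 3, and 10.8% in cKO replicate 2. Summed markers of endothelial cells (177 to 185 FPKM in Ctrl and 167 to 190 in cKO libraries), epicardial cells (102 to 116 and 97.5 to 127) and mesenchymal cells (262 to 273 and 231 to 329) overlapped, as did hepatocyte markers (21.5 to 281 and 85.5 to 173) and neural markers (2.44 to 4.44 and 4.26 to 5.04). The part of the cardiomyocyte and erythroid lists in the results below was examined only by rescaling, as given there.

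In control hearts the sarcolemmal exchanger and the pump were the most abundant transcripts of the 10 and the pump inhibitor Sln the least. On the FPKM scale, which is per length, the mean control level was 318 ± 22.6 (SD, n = 3) for Slc8a1 and 297 ± 5.01 for Atp2a2, and these overlapped. Nearly all of the Slc8a1 value stood in a row that holds 2913 bases, of which 2910 are coding, so untranslated sequence did not enter its length. Ryr2 followed at 81.6 ± 16.9 FPKM, above the next 3 genes without overlap. Trdn at 47.8 ± 3.25 FPKM, Pln at 42.9 ± 6.50 and Asph at 41.9 ± 0.695 formed a group in which neighbours overlapped. Below them, without overlap between neighbours, came Jph2 at 35.1 ± 1.81, Hrc at 26.7 ± 1.72, Casq2 at 12.0 ± 1.19 and Sln at 1.83 ± 0.364 FPKM. Ordered by the cKO means, Trdn went from rank 4 to rank 8, and none of the other 9 moved by more than 2 ranks.

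**Figure D1:**
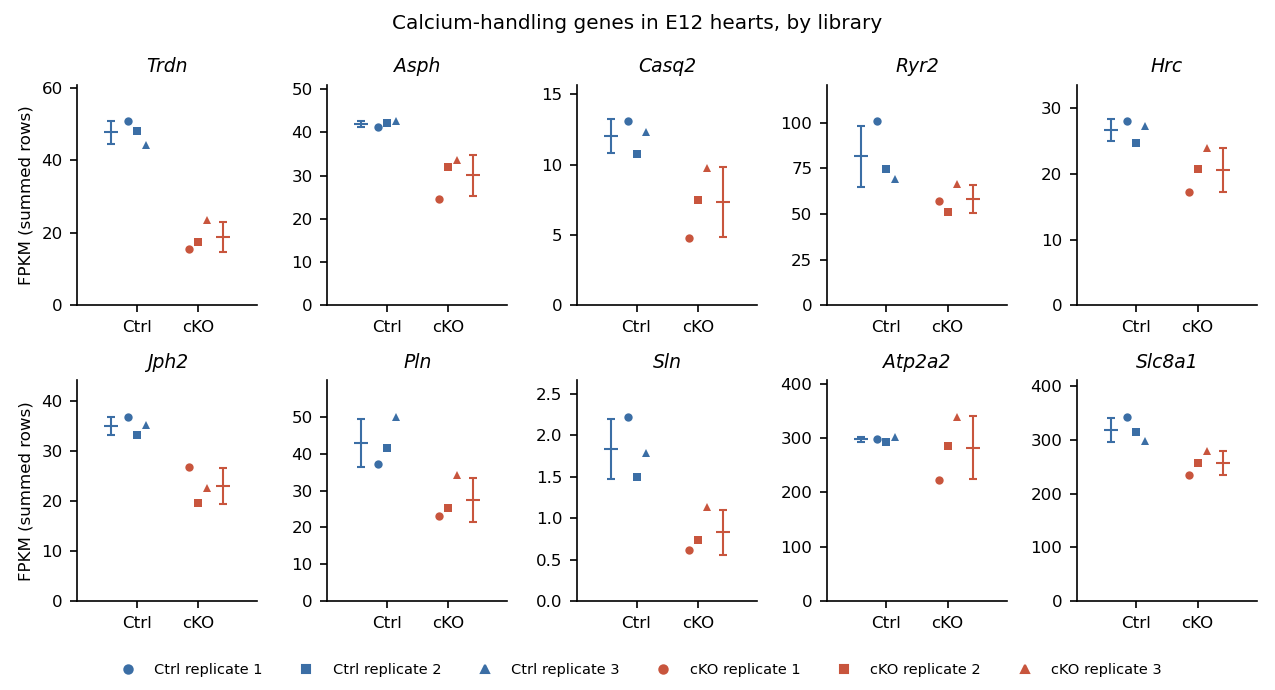
FPKM, summed over transcript rows, of each of the 10 calcium-handling genes (vertical axes, each from 0) in the Ctrl and cKO hearts; each symbol is a library and the horizontal tick with its bar is the mean ± SD of 3 libraries. In 9 panels every cKO library lies below every Ctrl library, and in the Atp2a2 panel the cKO libraries spread from 223 to 338 FPKM around the Ctrl values.

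Trdn showed the largest difference of the 10. Its FPKM was 50.8, 48.1 and 44.4 in Ctrl replicates 1, 2 and 3, and 15.4, 17.6 and 23.6 in cKO replicates 1, 2 and 3. The highest cKO library stood at 49.4% of the control mean, so the groups were far from overlapping. The log2 fold change on the log2(FPKM + 1) scale was -1.32 (standard error 0.14), and no p is given because Trdn was picked on this difference. Without the library labelled cKO replicate 3 it was -1.48.

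The difference in Trdn was uneven among its rows. Trdn-207, the row with the highest control level, was at 31.7, 28.6 and 25.7 FPKM in the Ctrl libraries and at 4.03, 5.85 and 3.04 in the cKO libraries. Its mean was 28.6 ± 2.99 (SD, n = 3) in Ctrl and 4.31 ± 1.43 (SD, n = 3) in cKO, or 15.0% of control. Among 9882 rows of the whole table with a mean of at least 5 FPKM, 7, or 0.0708%, were lower in every cKO library by a ratio of means at least as large as that of Trdn-207, itself included. Trdn was picked on this difference, so the place of Trdn-207 among the rows is a description and no test. As a share of the summed Trdn FPKM, Trdn-207 held 62.3%, 59.4% and 57.9% in Ctrl and 26.1%, 33.3% and 12.9% in cKO libraries. These shares describe how the authors' software divided fragments among rows that overlap.

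Of the other rows, the fragment Trdn-205 was also lower in every cKO library, and the long isoform and the other short isoforms were not. Trdn-205, an internal fragment annotated as incomplete at both ends, was at 7.18, 6.11 and 5.27 FPKM in Ctrl and 2.84, 1.98 and 4.18 in cKO libraries. Trdn-201, the long isoform of 38 exons, was at 5.05, 5.40 and 5.75 FPKM in Ctrl and at 2.65, 3.63 and 6.60 in cKO libraries, with the library labelled cKO replicate 3 above all controls. Trdn-208 was at 5.24, 6.38 and 5.17 FPKM in Ctrl and 2.63, 3.27 and 5.25 in cKO libraries, which overlapped. Trdn-202 was at 1.66, 1.68 and 2.46 FPKM in Ctrl and 2.82, 2.27 and 4.04 in cKO libraries, so its mean was higher in cKO, with overlap. Trdn-206, which is annotated like Trdn-207 with an unfinished end, stood below 0.01 FPKM in every Ctrl library and at 0.440, 0.280 and 0.470 in cKO libraries, and Trdn-203 did not exceed 0.295 FPKM in any library.

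Without Trdn-207, the remaining 6 rows summed to 19.1, 19.6 and 18.7 FPKM in Ctrl and to 11.4, 11.7 and 20.5 in cKO replicates 1, 2 and 3. The log2 fold change of this sum was -0.42, and its groups overlapped because of the library labelled cKO replicate 3. That library is the one in which Mrps5 was at the control level, and it is also the one with the lowest Trdn-207. The separation of the summed Trdn value in the library labelled cKO replicate 3 thus rested on the row Trdn-207, a comparison made after the values had been seen.

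**Figure D2:**
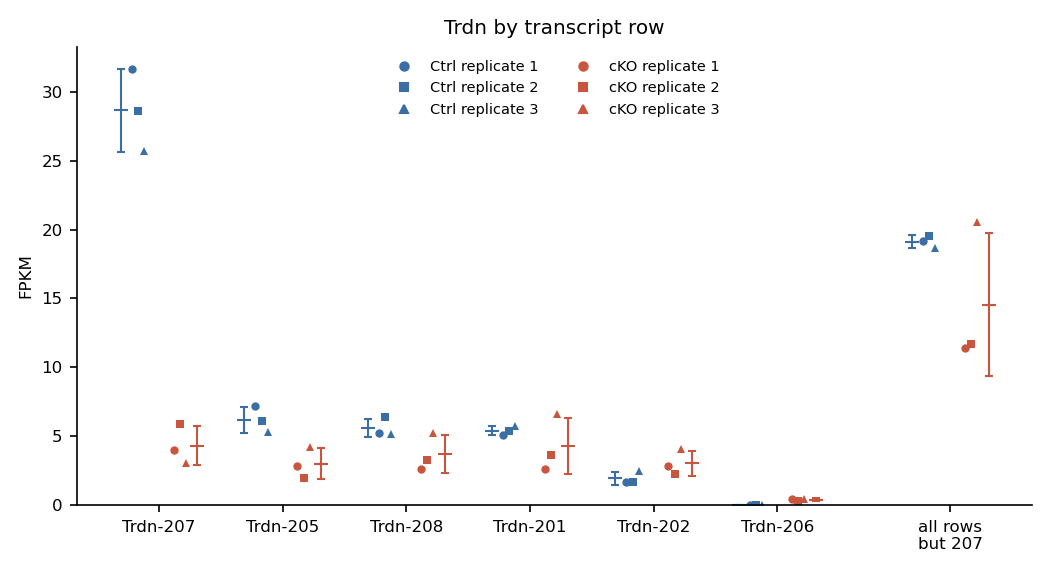
FPKM of 6 Trdn transcript rows and of the sum of all rows other than Trdn-207 (vertical axis) in each Ctrl and cKO library, with the mean ± SD of 3 libraries beside the symbols. Trdn-207 lies between 25.7 and 31.7 in Ctrl and between 3.04 and 5.85 in cKO libraries, and the library labelled cKO replicate 3 is within or above the Ctrl values for Trdn-208, Trdn-201 and the sum without Trdn-207.

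Asph, whose products include junctin, was at 41.2, 42.0 and 42.5 FPKM in Ctrl and at 24.7, 32.1 and 33.6 in cKO libraries. The Ctrl libraries were nearly equal and all cKO libraries lay below them. The fitted log2 difference was -0.48, with a standard error of 0.12. Split by annotated start, the 5 rows with the internal start summed to 21.6, 16.2 and 19.8 FPKM in Ctrl and to 7.57, 9.41 and 12.4 in cKO libraries, which did not overlap. The 10 rows with the upstream start summed to 19.5, 25.9 and 22.8 FPKM in Ctrl and to 17.1, 22.6 and 21.2 in cKO libraries, and these overlapped. The log2 fold change was -0.92 (standard error 0.17) for the internal and -0.16 (standard error 0.13) for the upstream start. The internal-start rows held between 38.5% and 52.5% of the summed Asph FPKM in Ctrl and between 29.4% and 36.9% in cKO libraries. The split was made after the values had been seen and the difference between the starts was not tested.

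Within the internal-start class the abundant row was Asph-208, at 12.1, 8.83 and 11.4 FPKM in Ctrl and 4.04, 5.28 and 6.41 in cKO libraries, without overlap. Asph-206, a shorter transcript of 5 exons, was at 4.02, 3.67 and 3.78 FPKM in Ctrl and 1.74, 1.99 and 2.29 in cKO libraries, also without overlap. Asph-209 has the internal start too, but its groups overlapped, at 3.47, 3.17 and 4.18 FPKM in Ctrl and 1.28, 1.84 and 3.24 in cKO libraries. In the other direction, the upstream-start row Asph-217 was at 4.10, 3.18 and 2.70 FPKM in Ctrl and 1.66, 2.15 and 1.88 in cKO libraries, without overlap, so single rows did not all follow the split by start. The long upstream-start row Asph-212 was at 2.11, 8.17 and 3.26 FPKM in Ctrl and 5.83, 6.44 and 6.67 in cKO libraries. Asph-211, also of 23 exons from an upstream start, was at 6.46 and 2.84 FPKM in Ctrl replicates 1 and 3, was listed at 0 in Ctrl replicate 2, and stood below 0.01 FPKM in every cKO library. Asph-212 was highest in the control library where Asph-211 was listed at 0. On the opposite strand, Clvs1 overlaps Asph and stood at 1.40, 1.80 and 2.02 FPKM in Ctrl and 0.445, 0.480 and 1.31 in cKO libraries, and the libraries were prepared to keep strand.

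**Figure D3:**
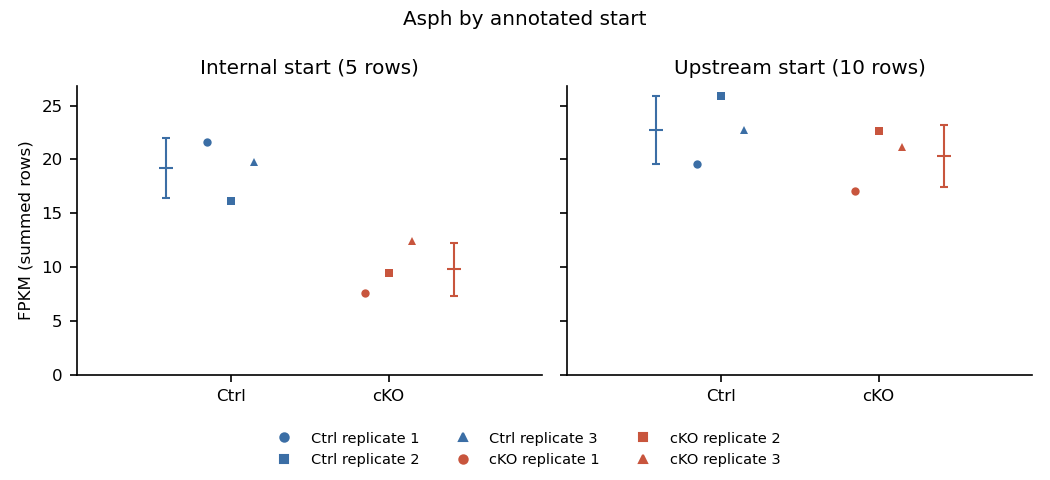
Summed FPKM of Asph rows with the internal annotated start (left, 5 rows) and with the upstream annotated start (right, 10 rows) in each Ctrl and cKO library, on a shared vertical axis from 0, with the mean ± SD of 3 libraries. The groups are apart on the left, where cKO libraries reach at most 12.4 and Ctrl libraries start at 16.2, and overlap on the right.

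Of the genes acting inside the reticulum, Casq2 was at 13.1, 10.7 and 12.3 FPKM in Ctrl and 4.81, 7.47 and 9.75 in cKO libraries, without overlap but with a wide spread among the cKO libraries. Its log2 fold change was -0.68 (standard error 0.20), -0.45 without cKO replicate 1 and -0.89 without the library labelled cKO replicate 3. Casq1, the paralogue best known from skeletal muscle, had the higher level of the pair in these hearts, at 64.7, 70.5 and 72.1 FPKM in Ctrl and 43.0, 61.2 and 77.3 in cKO libraries, which overlapped. That comparison of paralogues was noticed after the values had been seen. Hrc was at 28.0, 24.7 and 27.3 FPKM in Ctrl and 17.3, 20.7 and 23.9 in cKO libraries. These did not overlap either, and the fitted difference was -0.37 on the log2 scale, with a standard error of 0.12.

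The release channel gene Ryr2 was at 100.8, 74.9 and 69.0 FPKM in Ctrl and 57.1, 51.2 and 66.7 in cKO libraries. The groups came close, with the highest cKO library just below the lowest Ctrl library. Its log2 fold change was -0.47 (standard error 0.15). The high value of Ctrl replicate 1 stood in a short annotated transcript of 25 exons, which was at 44.1 FPKM there and at 20.9 and 19.0 in Ctrl replicates 2 and 3. The full-length transcript, of 105 exons, was steadier, at 39.7, 34.4 and 34.4 FPKM in Ctrl and 22.9, 27.2 and 31.1 in cKO libraries, and alone it gave a log2 fold change of -0.41. Without Ctrl replicate 1, the summed Ryr2 value was at -0.31.

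Jph2, the membrane tether, was at 36.8, 33.2 and 35.3 FPKM in Ctrl and 26.9, 19.7 and 22.7 in cKO libraries, a log2 fold change of -0.59 (standard error 0.12). The groups were well apart, and here cKO replicate 1 was the highest of the cKO libraries.

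The pump gene differed least. Atp2a2 was at 298, 292 and 302 FPKM in Ctrl and at 223, 286 and 338 in cKO libraries, so cKO replicates 1 and 2 were below and the library labelled cKO replicate 3 above the controls. The log2 fold change was -0.10 (standard error 0.15), and its sign rested on single libraries, at 0.064 without cKO replicate 1 and -0.24 without the library labelled cKO replicate 3. Most of it stood in the row of 21 exons, at 264, 264 and 273 FPKM in Ctrl and 191, 255 and 277 in cKO libraries. The other row, of 20 exons, was at 34.2, 28.4 and 29.0 FPKM in Ctrl and 31.9, 30.2 and 60.9 in cKO libraries, and only the last of these stood apart.

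Both pump inhibitors were lower in all cKO libraries. Pln was at 37.1, 41.6 and 49.9 FPKM in Ctrl and 23.0, 25.2 and 34.1 in cKO libraries, a log2 fold change of -0.64 (standard error 0.16). The row Pln-201 gave the clearer separation, at 22.2, 22.6 and 27.1 FPKM in Ctrl and 10.2, 12.0 and 17.2 in cKO libraries. Sln, which marks the atrial lineage in the heart, was at 2.22, 1.49 and 1.78 FPKM in Ctrl and 0.614, 0.738 and 1.13 in cKO libraries, 45.3% of the control mean. Its log2 fold change of -0.63 (standard error 0.16) understates this ratio, because 1 was added to low values. Sln met the minimum of 1 FPKM in its 3 Ctrl libraries and in the library labelled cKO replicate 3.

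The exchanger gene Slc8a1 was at 342, 314 and 298 FPKM in Ctrl and 234, 257 and 280 in cKO libraries, a log2 fold change of -0.31 (standard error 0.11). The groups did not overlap, and the relative spread was small in both.

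Of the 10 genes, 9 were lower in every cKO library than in any Ctrl library, where 13.0% of the 13262 genes tested were, and all 10 fitted differences were negative. Their median log2 fold change was -0.54, against -0.02 over all genes tested. With the erythroid genes left out and the libraries rescaled to the same total, 8 of the 10 were lower in every cKO library, where 10.6% of all genes were, and the median was -0.51, against 0.0018 over all genes. Since the comparison itself chose the set, nothing is read from these counts. No p is given for any of the 10 for the same reason. Without the library labelled cKO replicate 3, the median of the 10 was -0.58 and the log2 fold change was -0.56 for Ryr2, -0.56 for Asph, -0.47 for Hrc, -0.59 for Jph2, -0.80 for Pln, -0.75 for Sln and -0.37 for Slc8a1, beside the values given above for Trdn, Casq2 and Atp2a2. At the level of transcripts, 14 of the 31 rows of the 10 genes with a mean of at least 1 FPKM were lower in every cKO library, where 10.7% of such rows in the table were, and 0 were higher in every cKO library, where 6.76% were. Trdn-206 and Trdn-203 were higher in every cKO library but below that mean.

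**Figure D4:**
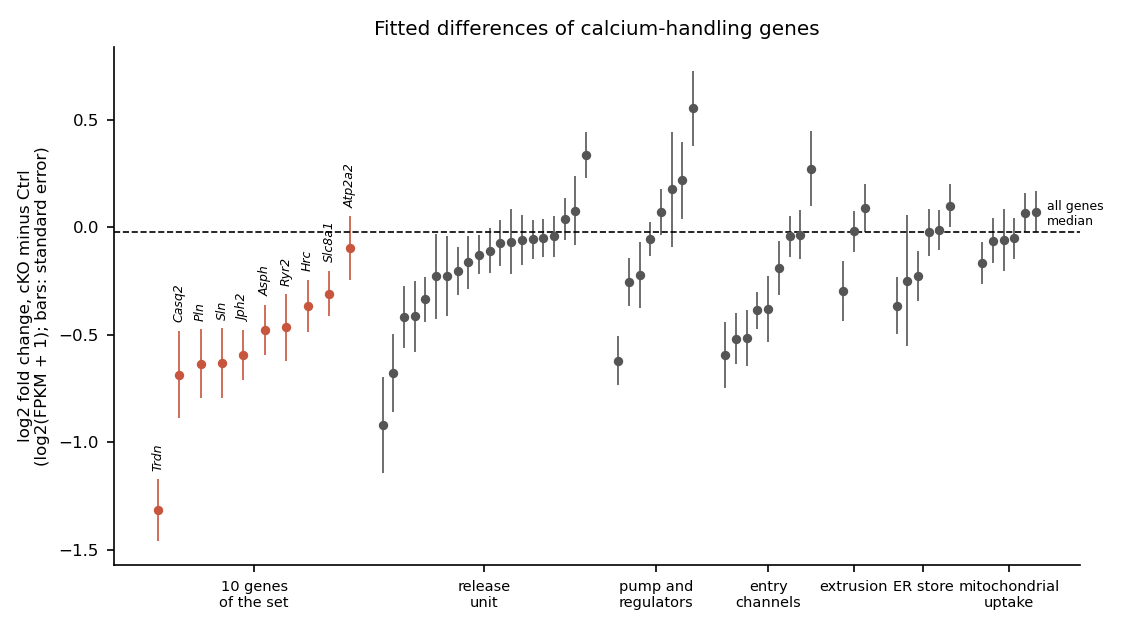
Log2 fold change, cKO minus Ctrl, on the log2(FPKM + 1) scale with its standard error (vertical axis) for the 10 genes, named, and for 52 other calcium-handling genes in 6 classes (horizontal axis); the dashed line is the median of all genes tested. Trdn lies lowest at -1.32, the other 9 genes lie between -0.68 and -0.10, and the other classes range from -0.92 to 0.55.

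The libraries of the cKO group followed a common order across the set. Relative to the control mean, cKO replicate 1 was lowest and the library labelled cKO replicate 3 highest for 8 of the 10 genes, which 16.7% of all genes tested and 9 of the 15 cardiomyocyte markers showed. The exceptions were Ryr2 and Jph2. The same order was seen in Mrps5, at 50.5%, 70.8% and 99.2% of the control mean in cKO replicates 1, 2 and 3, and in the summed cardiomyocyte markers, at 73.5%, 80.7% and 87.8%. Trdn, at 32.3%, 36.8% and 49.4%, was below the marker sum in all 3 libraries. Slc8a1, at 73.6%, 80.8% and 88.0%, was close to it in each.

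**Figure D5:**
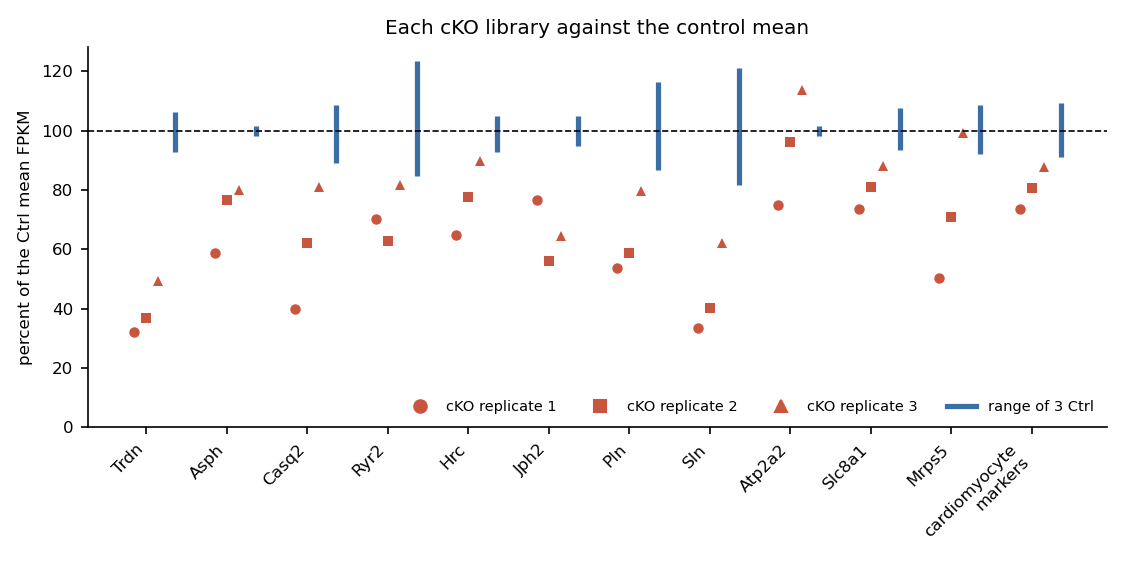
FPKM of each cKO library as a percent of the Ctrl mean (vertical axis) for the 10 genes, for Mrps5 and for the sum of 15 cardiomyocyte markers, with the range of the 3 Ctrl libraries as a blue bar. cKO replicate 1 is lowest and the library labelled cKO replicate 3 highest for 8 of the 10 genes, and Trdn lies furthest below its controls, between 32.3% and 49.4%.

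To set the calcium genes against other genes of the cardiomyocyte, the libraries were rescaled to an equal mean log2 level of the 15 markers. This moved the median of all genes tested to 0.25. The median of the 10 genes was then -0.23, and 3 of them, Trdn, Casq2 and Sln, were lower in every cKO library, where 1.57% of all genes tested were. The set was chosen on this comparison, so nothing is read from this count either. For Casq2 the rescaled groups came close, at 9.90 in the library labelled cKO replicate 3 and 10.3 in Ctrl replicate 3. Trdn kept a log2 fold change of -1.02, from rescaled values of 44.7, 47.4 and 37.0 in Ctrl and 18.7, 19.7 and 23.9 in cKO libraries. Casq2 was then at -0.41 and Sln at -0.47. Slc8a1 and Atp2a2 turned positive under this scaling, Slc8a1 at 0.0023 and Atp2a2 at 0.21. Most of these markers encode contractile proteins, and whether their level per cardiomyocyte was constant was not tested.

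Other calcium-handling genes, 57 in 6 classes, were listed by function, and 52 of them were tested. With limma and Benjamini-Hochberg adjustment over all 13262 genes, 0 of the 52 had an adjusted p under 0.05, where 0.0829% of all genes passed in either direction and 0.0302% were lower. At an unadjusted p under 0.05, 13 were lower and 2 higher, where 9.43% and 5.58% of all genes tested were. Their median log2 fold change was -0.07. Without the library labelled cKO replicate 3, 2.03% of all genes had an adjusted p under 0.05 in limma in either direction and 1.00% were lower, and so did 3 of the 52, namely Cav3 (adjusted p = 0.000992), Ppp1r1a (adjusted p = 0.00729) and Cmya5 (adjusted p = 0.0227).

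Of the channels for calcium entry, 5 of 9 tested were lower at the unadjusted threshold, where 9.43% of all genes tested were. These were the pore subunit genes Cacna1c at -0.59, Cacna1d at -0.51 and Cacna1h at -0.38 on the log2 scale, and the auxiliary subunit genes Cacnb2 at -0.52 and Cacna2d1 at -0.39. With the libraries rescaled to the cardiomyocyte markers all 5 were nearer to no difference, at -0.30, -0.25, -0.089, -0.23 and -0.099 in the same order. Cacna1c, the L-type channel of the working heart, was at 24.6, 17.1 and 17.3 FPKM in Ctrl and 14.5, 11.2 and 12.0 in cKO libraries, without overlap. Cacna2d1 was at 15.2, 13.4 and 13.2 FPKM in Ctrl and 10.2, 10.8 and 10.3 in cKO libraries, also apart. The adjusted p-values of these 5 lay between 0.142 for Cacna2d1 and 0.301 for Cacna1h in limma.

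In the release unit, 5 of 20 genes tested were lower and 1 higher at the unadjusted threshold, where 9.43% and 5.58% of all genes tested were. Cav3, the muscle caveolin, was at 19.0, 17.4 and 20.2 FPKM in Ctrl and 7.23, 7.90 and 14.7 in cKO libraries, a log2 fold change of -0.92 with an adjusted p of 0.154 in limma. Cmya5, which encodes a scaffold protein of the Z-disc, had a log2 fold change of -0.68, Tecrl, an arrhythmia gene, of -0.42, the kinase gene Speg of -0.41 and the calmodulin kinase gene Camk2d of -0.34. With the libraries rescaled to the cardiomyocyte markers, Cav3 was at -0.63, Cmya5 at -0.44, Tecrl at -0.12, Speg at -0.11 and Camk2d at -0.039. S100a1, which encodes a calcium-binding protein that acts on RYR2 and SERCA2, was the higher gene, at 25.2, 27.8 and 31.1 FPKM in Ctrl and 36.2, 32.2 and 38.5 in cKO libraries, without overlap, and at 0.34 on the log2 scale. Under the same rescaling S100a1 was at 0.64.

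Among regulators of the pump, Ppp1r1a, which encodes an inhibitor of protein phosphatase, was at 21.1, 19.7 and 22.3 FPKM in Ctrl and 12.3, 12.2 and 15.8 in cKO libraries. Its adjusted p of 0.0967 in limma was the lowest of the 52, with a log2 fold change of -0.62. Prkaca, a catalytic subunit of protein kinase A, was at -0.25. Atp2a1, the pump of fast skeletal muscle, was higher at a low level, at 0.787, 0.688 and 1.15 FPKM in Ctrl and 1.21, 1.98 and 2.11 in cKO libraries. It met the minimum of 1 FPKM in its 3 cKO libraries and in Ctrl replicate 3, so it entered the test through the group where it was higher. With the libraries rescaled to the cardiomyocyte markers, Ppp1r1a was at -0.33, Prkaca at 0.051 and Atp2a1 at 0.72. The skeletal muscle list of 6 genes summed to between 22.6 and 26.6 FPKM in Ctrl and between 13.4 and 25.4 in cKO libraries, and their part in the Atp2a1 value was not tested. Among the remaining classes, Itpr2, an inositol trisphosphate receptor gene, was lower at the unadjusted threshold, at -0.36, or -0.091 with the libraries rescaled to the cardiomyocyte markers. Of calcium extrusion 0 of 3 genes and of mitochondrial uptake 0 of 6 genes passed that threshold. Leaving out 1 library moved 4 of the 15 fitted values past the unadjusted threshold by over 1.5 times, to -0.22 for Speg, -0.22 for Cacna1h and -0.23 for Itpr2 without Ctrl replicate 1, and to -0.25 for Tecrl without cKO replicate 1. With its most abundant transcript alone, Speg was at -0.11.

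The genes whose pattern across the 6 libraries was most like that of Trdn were named by Pearson's r of log2(FPKM + 1) among 9032 genes with a mean of at least 5 FPKM, leaving out the 10 genes. They were Slf1, with r = 0.995, Ndufb3 with 0.993, Cox7a1 with 0.990, Ppm1k with 0.990 and Trappc1 with 0.987. The 6 points come from 2 groups that differ in Trdn, so a high r is shared by many genes that differ between the groups. Ndufb3 and Cox7a1 encode subunits of complexes I and IV of the respiratory chain, and Ppm1k a mitochondrial phosphatase of branched-chain amino acid breakdown. Cox7a1 was at 83.1, 82.8 and 86.0 FPKM in Ctrl and 52.3, 53.4 and 62.0 in cKO libraries, and Ppm1k at 14.2, 13.6 and 13.0 in Ctrl and 7.44, 8.48 and 10.3 in cKO libraries. That their groups were apart follows from how these genes were chosen. Within the set of 10, r with Trdn ran from 0.482 for Atp2a2 to 0.957 for Sln.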

How the data were processed

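RNA of pooled hearts was depleted of ribosomal RNA and made into strand-specific libraries, per the labels. The authors deposited FPKM values for 60776 transcripts and 6 libraries. The submitters' processing notes name mm9, Bowtie2 2.2.8, HISAT2, StringTie 1.3.1 and Cuffdiff 2.1.1 without roles. The annotation release is not given in the sources used here. Sequences and coordinates come from GENCODE M21 on GRCm38, matched by transcript identifier, and no coordinate was taken from mm9. Read depth is unknown, so no counting interval is given.

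FPKM were summed per gene identifier. Genes with at least 1 FPKM in at least 3 of 6 libraries were compared on log2(FPKM + 1) with limma 3.58.1 in R 4.3.3, with trended variance, group as the only term and Benjamini-Hochberg adjustment at 0.05. Fold changes on this scale understate those of low genes. The genes and lists were chosen with earlier results of these data known. Named in the text are the 10 genes, Mrps5, other calcium genes with an unadjusted p under 0.05, and the 5 genes most like Trdn. Casq1 and Clvs1 fall outside this rule, and Casq1 was named after its values were seen. Replicates are described as biological repeats.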

Additional observations from a re-analysis of the deposited data

How the results depend on the processing

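The median of all genes tested moved by over 0.1 only when libraries were rescaled to the cardiomyocyte markers, to 0.25. Under that scaling 216 genes had an adjusted p under 0.05 in limma where 11 did before, 3 of the 10 calcium genes were lower without overlap, their median was -0.23, Trdn was at -1.02, 1 of the 52 other calcium genes passed (S100a1), and Atp2a2 at 0.21, Slc8a1 at 0.0023 and Prkaca at 0.051 turned positive. The number of genes that passed was 5 with no filter on low values, 4 with the most abundant transcript alone and 4 with the replicate block, and 5 to 269 with each library left out. Without cKO replicate 2 it was 119, and without the library labelled cKO replicate 3 it was 269. The count of the 10 calcium genes under the threshold includes Trdn, on whose difference the set was chosen, and is therefore a description and no test. It was 1 in the fit as reported, 0 with no filter and with the block, and 0 to 3 with each library left out, with 0 without Ctrl replicate 1, 2 or 3 or cKO replicate 1. The other calcium genes that passed numbered 0 to 3 with each library left out. Trdn was at -2.51 with its most abundant transcript alone and at -0.42 without Trdn-207, an alternative added after seeing the data. Of the Trdn rows, 2 were lower without overlap in FPKM and 1 as a share of the gene's sum. Atp2a2 ranged from -0.24 to 0.064 with each library left out, and was at 0.064 without cKO replicate 1. With erythroid genes left out, the 10 calcium genes had a median of -0.51 and 8 were lower without overlap. With the libraries scaled by median-ratio size factors, their median was also -0.51 and 7 were lower without overlap. Values were recomputed for 24 genes, the 9 calcium genes other than Trdn and the 15 other calcium genes with an unadjusted p under 0.05. None of these passed as reported. Of 335 recomputed values, 325 kept their direction and side of the threshold, 6 newly passed it and 4 changed sign. For the 9 this is again a description. A value that shrank and still failed counted as kept, as for Camk2d, at -0.039 with the libraries rescaled to the cardiomyocyte markers. The number of kept values therefore does not measure how stable the sizes were.

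Replicate numbers do not name a shared litter. Deviations of same-numbered libraries from their group means correlated at 0.215, 0.108 and 0.0892, not all over 0.1, and each library correlated best with its own number, a hint from the data and not the design. The block lowered the count of genes that passed from 11 to 4. Depth and the number of fragments behind each row are unknown, so rows that share exons are the least certain values.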
